A study of Mus musculus with 15 samples.

Results

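Replication-dependent histone genes were followed in Crym-EGFP-positive kidney cells sorted from newborn mice on 5 consecutive days, P0 (postnatal day 0) to P4. The members are all genes measured under a single symbol whose name is a linker histone H1f1 to H1f5 or a core histone of the H2ac, H2bc, H3c or H4c series. There were 26 such genes among the 19938 named genes of the array: 4 of the H1 class, 4 of H2A, 9 of H2B, 3 of H3 and 6 of H4. Of these, 22 lie in the histone clusters of chromosome 13 and 4 (H2bc18, H2bc21, H3c15 and H4c14) lie on chromosome 3. The RefSeq annotation (GRCm38.p6) holds 63 genes that fit the names. Each member had 1 probe set. Coding sequences within a class are nearly alike, so a probe set named for 1 gene may also take signal from other copies, which was not tested.

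The samples were 15 pools of sorted cells, 3 for each day, and each pool held about 4 kidneys. All animals were CD-1 mice that carried Tg(Crym-EGFP)82Gsat, a bacterial artificial chromosome in which Crym sequence drives green fluorescent protein. The pups went to CD-1 foster mothers at E18.5, and kidneys were dissociated with trypsin before the sort. Cap mesenchyme, which holds the progenitors of the nephron, is the label of the 12 samples of P0, P1, P2 and P3. Renal vesicle, the first epithelial stage of the nephron, is that of the 3 samples of P4, although the design text of the series names cap mesenchyme on every day. Day and labelled compartment change together at P4 and cannot be told apart there. The sex of the pups is labelled unknown, the sources used here give no gate for the sort, and no label states whether pools of one day are from different litters. The p-values therefore measure the spread between these pools only.

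Replication-dependent histones wrap the DNA that is made in S phase. Core histones H2A, H2B, H3 and H4 form the nucleosome, and linker histone H1 binds the DNA between nucleosomes. Most of their mRNAs lack introns and a poly(A) tail and end in a conserved stem-loop, which the stem-loop binding protein Slbp holds through processing, translation and decay. Their transcription is driven at histone locus bodies by Npat, a target of cyclin E and Cdk2. In cycling cells these mRNAs accumulate while DNA is replicated and are degraded when replication ends, so that in many tissues they mark cells in S phase. Cap mesenchyme cells divide while they supply nephrons, and in the mouse this pool is used up in the first days after birth.

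The values are on a log2 scale, so that a difference of 1 is a doubling of signal. All values lay between 2.38 and 13.76. The median of a sample lay between 6.80 and 6.92. The number of arrays, 3 a day, limits the precision. The first replicate of each day stood apart from replicates 2 and 3: the interquartile range of its values was 2.14 to 2.27, against 2.52 to 2.77 in the others, and a principal component with 35.3% of the variance put the 5 first replicates together on one side. Markers of both labelled compartments had shifted by P3, before the label changes at P4. Six2, the progenitor transcription factor, averaged 11.0, 10.9, 10.7, 9.73 and 8.44 on P0 to P4, and Crym averaged 11.9, 11.6, 11.6, 10.4 and 7.80. Lhx1, a renal vesicle transcription factor, averaged 7.14, 7.16, 8.20, 9.86 and 10.2 on the same days, and Wnt4, the signal that starts epithelial conversion, averaged 8.12, 8.05, 8.69, 9.14 and 9.06. Markers of other cell types were measured too. The filter on dim genes, which kept genes above log2 6.86 in at least 3 arrays, passed 0 of 7 endothelial, 1 of 7 macrophage (Cd68), 1 of 3 podocyte, 2 of 3 erythroid, 3 of 5 proximal tubule, 6 of 9 ureteric bud and 9 of 10 stroma markers. The stroma list averaged 8.23, 8.09, 7.82, 7.69 and 7.58 on P0 to P4.

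The promoters of histone genes are known for short elements, some of them typical of 1 class, and 4 promoters are shown, those of genes whose values are given in full below. No comparison set an element against a change between days. H1f2, H2bc8 and H4c4 are 3 of the 4 genes called lower at P1 in the model with the replicate number (H2bc4 is the fourth), and H2bc9 was not called at P1 and was called higher at P4. Each line gives the 250 bases before the start of the gene, 5′ to 3′ on the strand of the gene, from RefSeq on GRCm38.p6. The capitals mark TATAAA (the TATA box), CCAAT (bound by NF-Y), ATTTGCAT (the octamer of H2B promoters) and AAACACA (the AC box of H1 promoters), on either strand, and no matches overlapped. H1f2 is at chr13:23738557-23738806, H2bc8 at chr13:23571150-23571399 and H4c4 at chr13:23581318-23581567, all on the plus strand, and H2bc9 is at chr13:23543445-23543694 on the minus strand.
H1f2: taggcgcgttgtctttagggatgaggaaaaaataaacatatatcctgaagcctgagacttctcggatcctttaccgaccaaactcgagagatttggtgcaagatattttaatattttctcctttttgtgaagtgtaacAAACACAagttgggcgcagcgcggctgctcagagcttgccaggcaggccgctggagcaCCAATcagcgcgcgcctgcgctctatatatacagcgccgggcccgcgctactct
H2bc8: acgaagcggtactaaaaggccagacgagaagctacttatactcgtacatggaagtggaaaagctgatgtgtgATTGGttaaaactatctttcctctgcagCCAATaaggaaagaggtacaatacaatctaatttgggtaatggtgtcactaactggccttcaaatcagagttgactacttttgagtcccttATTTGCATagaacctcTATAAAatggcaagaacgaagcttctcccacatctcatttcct
H4c4: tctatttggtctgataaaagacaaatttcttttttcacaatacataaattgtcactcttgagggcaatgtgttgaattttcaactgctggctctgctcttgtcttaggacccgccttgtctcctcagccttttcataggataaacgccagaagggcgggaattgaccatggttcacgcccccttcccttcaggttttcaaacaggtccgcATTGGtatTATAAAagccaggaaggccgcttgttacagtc
H2bc9: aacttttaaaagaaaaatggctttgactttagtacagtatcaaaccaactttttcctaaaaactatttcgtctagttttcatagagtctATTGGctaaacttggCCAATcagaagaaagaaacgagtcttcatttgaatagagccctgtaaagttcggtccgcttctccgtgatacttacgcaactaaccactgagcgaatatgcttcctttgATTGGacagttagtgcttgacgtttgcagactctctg

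A RefSeq promoter was matched for 22 of the 26 members, and not for H2bc4, H2bc21, H3c7 and H4c14. CCAAT was found in 18 of the 22 windows (81.8%), against 33.8% of all 32851 promoter windows of the same length. It was in all 4 windows of H1, all 4 of H2A and all 7 of H2B, and in 1 of 2 of H3 and 2 of 5 of H4. TATAAA was in 14 of 22 windows (63.6%), against 12.4% of all windows. The octamer was in 5 of 7 H2B windows and 3 of 4 H2A windows and in none of the other 11, against 1.60% of all windows. The AC box was in 3 of 4 H1 windows and 7 of 22 in all, against 6.25% of all windows. Some of these windows are shared between neighbours: those of H2bc8 and H2ac8, which start in opposite directions, overlap by 179 bases, and those of H2bc1 and H2ac1 by 220 bases. The 3 H2A windows with the octamer include both of these shared ones.

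The histone genes as a group stood lower at P1 than on any other day. The mean log2 value of the 26 members was 6.75, 7.32 and 7.54 in the 3 P1 samples, against 7.16, 7.95 and 7.82 in the P0 samples. It was 7.17, 7.97 and 7.88 at P2, 7.27, 7.80 and 7.85 at P3, and 7.22, 8.26 and 8.04 at P4. Every P1 sample was lower than the same-numbered sample of each other day, while the first replicates were lower than replicates 2 and 3 on every day. In a pool of cells, fewer cells in S phase and less histone mRNA in each cell cannot be told apart.

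**Figure D1:**
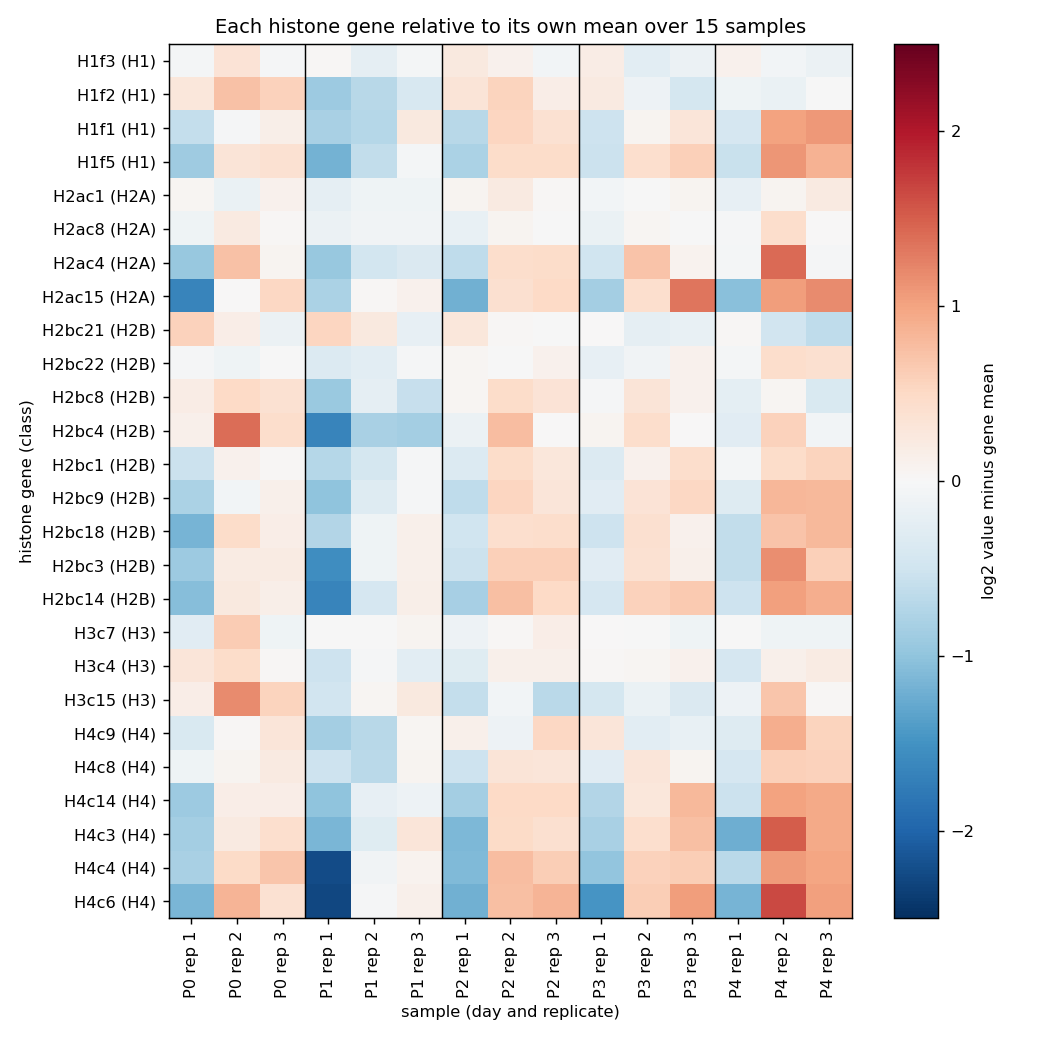
Log2 value of each of the 26 histone genes (rows, grouped by class) in each of the 15 samples (columns, P0 to P4 with 3 replicates each), relative to that gene's mean over the 15 samples. Blue is below and red above the gene's mean. The first replicate of each day and P1 replicate 2 are the bluest columns, with H4c4 and H4c6 of P1 replicate 1 the lowest. P1 replicate 3 lies near the gene means, at -0.06 on average.

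The first comparison asks how the histone genes of the sorted cells changed in the first day after birth, P1 against P0. Of the 26 members 25 had a lower mean at P1, against 48.9% of all named genes, and the median difference was -0.33, against 0.0034 over all named genes. In 19 of the 26 each P1 sample was below the P0 sample of its own number, against 10.1% of all named genes. The largest falls were those of H2bc4, H1f2, H2bc8 and H4c4. In limma's test across genes without a replicate term, 0 of the 19 members that passed the filter were called at an adjusted p under 0.05, and 0 (0%) of all 11885 genes tested were. At an unadjusted p under 0.05, 4 members were lower (H1f2, H2bc4, H2bc8 and H3c4), against 1.35% of all genes tested. With the replicate number as a further term of the model, which compares each sample with those of its own number, 4 members were called lower (H2bc4, H1f2, H2bc8 and H4c4), against 0.160% of all genes tested, and 0 were called higher, against 0.00841%. The same 4 were called when the term was the array set, first replicates against the others, against 0.151% of all genes tested. Each of those calls was lost without P0 replicate 1 or 2 or P1 replicate 1 (adjusted p of up to 0.203). Those of H1f2, H2bc4 and H4c4 were also lost without P1 replicate 2, and those of H1f2 and H4c4 without P0 replicate 3.

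Among linker histones the fall was that of H1f2, which encodes the somatic subtype H1.2. H1f2 had log2 values of 8.94, 9.17 and 9.45 in the P1 samples, against 10.14, 10.58 and 10.42 in the P0 samples. All 3 P1 samples were lower than every P0 sample. H1f2 was 2.29-fold lower at P1, a log2 difference of -1.19 (SE 0.18, n = 3 a day), and had the smallest p of all genes tested in the model without a replicate term (adjusted p = 0.110). With the replicate term its adjusted p was 0.0203 (SE 0.18). That call was lost without P0 replicate 2 or 3 or P1 replicate 1 or 2, with an adjusted p of up to 0.145.

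The other linker genes had smaller differences. H1f5, which encodes H1.5, had values of 7.53, 8.08 and 8.66 at P1, against 7.80, 9.03 and 9.08 at P0. H1f5 was lower in each same-numbered pair and the groups overlapped (difference -0.55, adjusted p = 0.357 with the replicate term). H1f1 had a difference of -0.26 and 1 of its 3 pairs was higher at P1. H1f3 did not pass the filter and lay between 5.27 and 5.87 in all 15 samples.

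The 4 H2A genes showed no call at P1. H2ac4 had values of 5.63, 6.12 and 6.21 at P1, against 5.63, 7.31 and 6.64 at P0, a difference of -0.54 (adjusted p = 0.942 with the replicate term). H2ac1, a testis histone, varied little, between 7.83 and 8.27 over all 15 samples, with a difference of -0.15. H2ac15 was the one member with a higher mean at P1. Its values were 8.96, 9.77 and 9.86 at P1, against 8.10, 9.75 and 10.26 at P0. The difference of 0.15 (adjusted p = 1.00 with the replicate term) came from the first replicates, where it was 0.85, and it was -0.20 within replicates 2 and 3. H2ac8 did not pass the filter and lay between 3.85 and 4.48 on all days, next to H2bc8, with which its promoter window overlaps.

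The H2B class held the largest fall of all. H2bc4 had log2 values of 6.33, 7.16 and 7.12 in the P1 samples, against 8.10, 9.36 and 8.42 in the P0 samples. Each P1 sample was lower than all 12 samples of the other days. H2bc4 was 3.38-fold lower at P1, a difference of -1.76 (SE 0.34 without and 0.16 with the replicate term), which was the largest fall among all 19938 named genes. Its adjusted p was 0.195 without the replicate term and 3.65e-04 with it. With that term the call held with any 1 of the 15 samples left out (adjusted p of up to 0.00696). The difference was -1.77 in the first replicates and -1.75 within replicates 2 and 3.

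H2bc8, another core histone H2B gene, had values of 6.14, 6.84 and 6.48 at P1, against 7.25, 7.57 and 7.45 at P0. The groups did not overlap. H2bc8 was 1.91-fold lower at P1 (difference -0.93, SE 0.18, adjusted p = 0.195 without the replicate term, and SE 0.11, adjusted p = 0.0030 with it). The call with the term was narrowly lost without P1 replicate 1, at an adjusted p of 0.0505. The other H2B genes that passed the filter had differences between -0.43 (H2bc14) and -0.0020 (H2bc21), none of them called, and the dim H2bc1 and H2bc18 had -0.26 and -0.059. H2bc21, also known as H2be and described in mouse olfactory neurons, had values of 9.89, 9.61 and 9.16 at P1, against 9.93, 9.51 and 9.22 at P0. Those 2 sets of values all but coincide, with a difference of -0.0020 (SE 0.12 with the replicate term).

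Single-symbol probe sets of H3 were few and mostly dim. H3c4 had values of 6.48, 6.96 and 6.73 at P1, against 7.28, 7.44 and 7.03 at P0. Its groups did not overlap, and the difference of -0.53 (SE 0.14 with the replicate term) was not called (adjusted p = 0.306). H3c15 did not pass the filter, with 4.80, 5.34 and 5.53 at P1, against 5.45, 6.47 and 5.83 at P0. H3c7 lay between 3.35 and 4.28 in all samples.

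Among H4 genes H4c4 fell in every pair, although its groups overlapped. H4c4 had values of 8.87, 11.01 and 11.18 at P1, against 10.30, 11.59 and 11.79 at P0. The first replicates of both days stood far below the other samples, and the fall was larger between them (-1.43) than within replicates 2 and 3 (-0.59). H4c4 was 1.83-fold lower at P1 (difference -0.87, SE 0.15, adjusted p = 0.0263 with the replicate term, and SE 0.71, adjusted p = 1.00 without it). That call was lost without any 1 of the 3 P0 samples or without P1 replicate 1 or 2, with an adjusted p of up to 0.191. H4c6 was lower in each pair too (5.54, 7.78 and 7.94 at P1, against 6.67, 8.66 and 8.20 at P0), a difference of -0.76 that was not called (adjusted p = 0.218 with the replicate term). H4c9, H4c8, H4c3 and H4c14 had differences of -0.48, -0.43, -0.32 and -0.26 and were lower in all of their same-numbered pairs.

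Across the 26 members the 3 P1 values lay below all 3 P0 values in 4 (H1f2, H2bc4, H2bc8 and H3c4), against 2.26% of all named genes. The fall at P1 was also seen in each array set: the median difference of the members was -0.29 in the first replicates and -0.33 within replicates 2 and 3. Replicates 2 and 3 alone, fitted by themselves, gave 0 calls among all genes tested and 7 members at an unadjusted p under 0.05, against 2.03% of all genes tested.

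**Figure D2:**
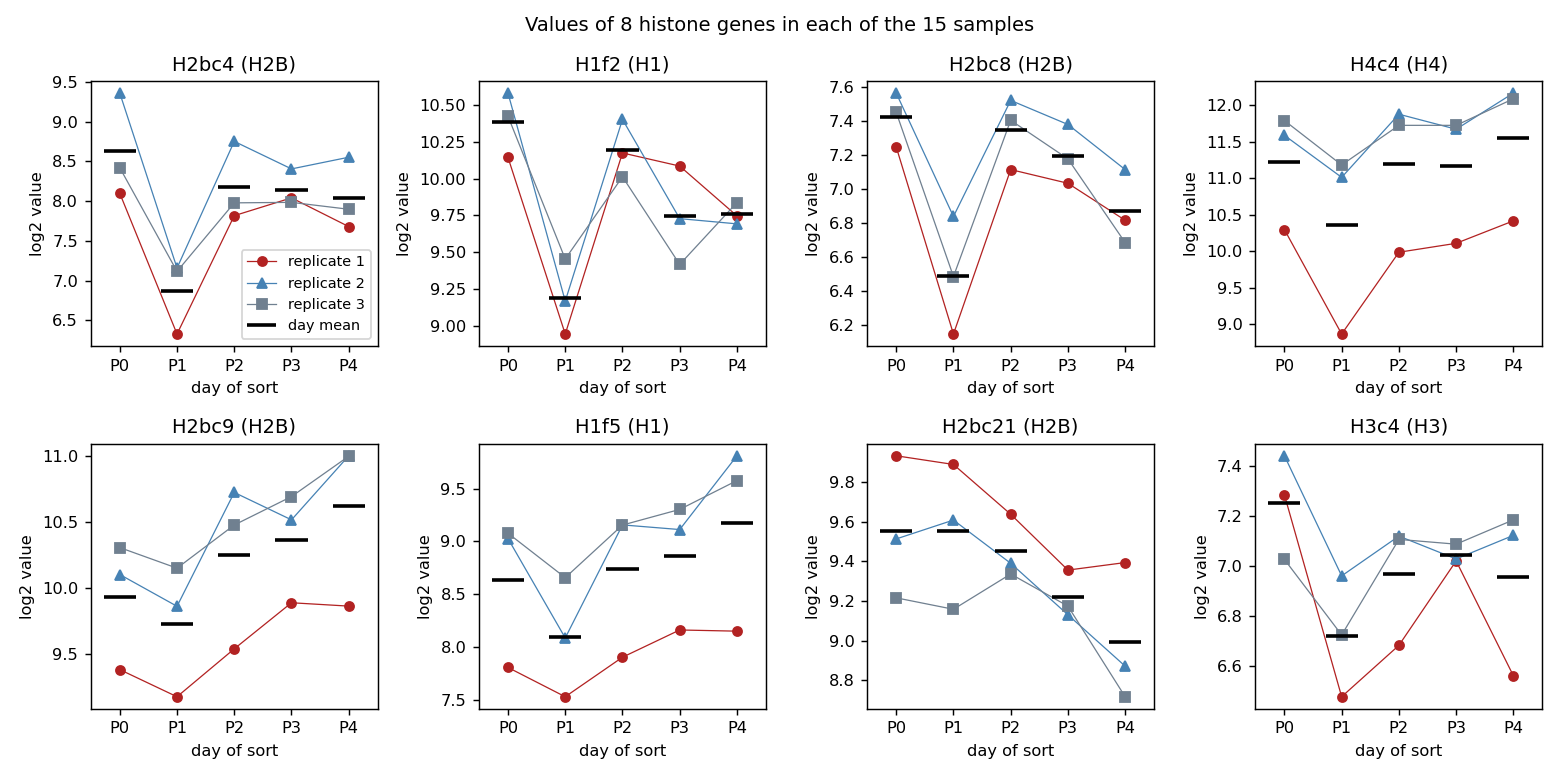
Log2 values of 8 histone genes in each of the 15 samples (points joined by replicate number) with the mean of each day (black bars), for P0 to P4. H2bc4, H1f2, H2bc8 and H4c4 dip at P1 in all 3 replicates, H2bc9 and H1f5 are higher at P4 than at P0, and H2bc21 shows no dip and is lowest at P4.

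The second comparison asks whether the fall persisted on the next day, P2 against P1. It was largely reversed: 24 of the 26 members had a higher mean at P2 than at P1, while 45.8% of all named genes had a lower one. The median difference was 0.50, against 0.013 over all named genes. In each same-numbered pair 20 of the 26 were higher, against 17.8% of all named genes. Without a replicate term 0 of the 19 members tested were called, against 0.0841% of all genes tested, and 3 had an unadjusted p under 0.05 (H1f2, H2bc4 and H2bc8), against 3.82%. With the replicate term 6 were called higher, against 0.766% of all genes tested, and 0 lower, against 0.194%. They were the 4 genes called lower at P1 together with H2bc14 and H4c6. These 2 comparisons share the P1 samples, so that a low value at P1 enters both.

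H2bc4 had values of 7.82, 8.75 and 7.98 at P2, against 6.33, 7.16 and 7.12 at P1, and was 2.49-fold higher (difference 1.32, SE 0.16, adjusted p = 0.0019). H1f2 had 10.17, 10.40 and 10.01 at P2, against 8.94, 9.17 and 9.45 at P1, and was 2.01-fold higher (difference 1.01, SE 0.18, adjusted p = 0.0122). H2bc8 had 7.12, 7.52 and 7.41 at P2, against 6.14, 6.84 and 6.48 at P1, and was 1.82-fold higher (difference 0.86, SE 0.11, adjusted p = 0.0020). In all 3 the P2 and P1 samples did not overlap, which held for 5 members in all (with H2ac1 and H2bc22), against 4.09% of all named genes.

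H4c4 was 1.79-fold higher at P2 (9.99, 11.87 and 11.72, against 8.87, 11.01 and 11.18 at P1, adjusted p = 0.0121) and H4c6 was 1.81-fold higher (6.60, 8.56 and 8.66, against 5.54, 7.78 and 7.94 at P1, adjusted p = 0.0488). H2bc14 was 1.73-fold higher (8.46, 10.05 and 9.78, against 7.63, 8.86 and 9.44 at P1, adjusted p = 0.0181). Every replicate of these genes was higher at P2 than its own number at P1, while the groups overlapped, since the first replicate of P2 lay below replicates 2 and 3 of P1. The adjusted p-values of this and the preceding paragraph are those with the replicate term. The calls of H2bc4 and H2bc8 held with any 1 sample left out (up to 0.0288 and 0.0247), whereas those of H1f2, H4c4 and H2bc14 were lost without P1 replicate 1 or 2 or P2 replicate 2, and also without P2 replicate 1 (H1f2 and H2bc14) or P2 replicate 3 (H4c4 and H2bc14), with adjusted p of up to 0.107, 0.105 and 0.153. That of H4c6 was kept only without P0 replicate 1 or 3, P3 replicate 3 or P4 replicate 2 (otherwise up to 0.239). With the array set as the term the same 6 genes were called, and none of the 6 calls held with each sample left out in turn: that of H2bc4 was lost without any of the 3 P1 samples or without P2 replicate 1 or 2 (up to 0.140), and that of H2bc8 without P1 replicate 1 or P2 replicate 2 (up to 0.0659).

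Only H2bc21 and H3c15 had a lower mean at P2 than at P1. H2bc21 had 9.64, 9.39 and 9.34 at P2, against 9.89, 9.61 and 9.16 at P1. H3c15 had 4.68, 5.22 and 4.61 at P2, against 4.80, 5.34 and 5.53 at P1, all below the filter.

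From P2 onward no member was called between adjacent days. For P3 against P2 0 members were called without and with the replicate term, against 0.143% and 1.21% of all genes tested, and 1 member had an unadjusted p under 0.05 in each (H1f2, difference -0.45), against 4.84% and 10.6%. For P4 against P3 0 were called, against 1.49% and 3.55% of all genes tested, with 1 and 6 members at an unadjusted p under 0.05, against 7.63% and 14.7%. The median differences of the members were -0.05 for P3 against P2 and 0.25 for P4 against P3. In the first replicates both had the opposite sign, 0.13 and -0.058, against -0.10 and 0.38 within replicates 2 and 3.

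**Figure D3:**
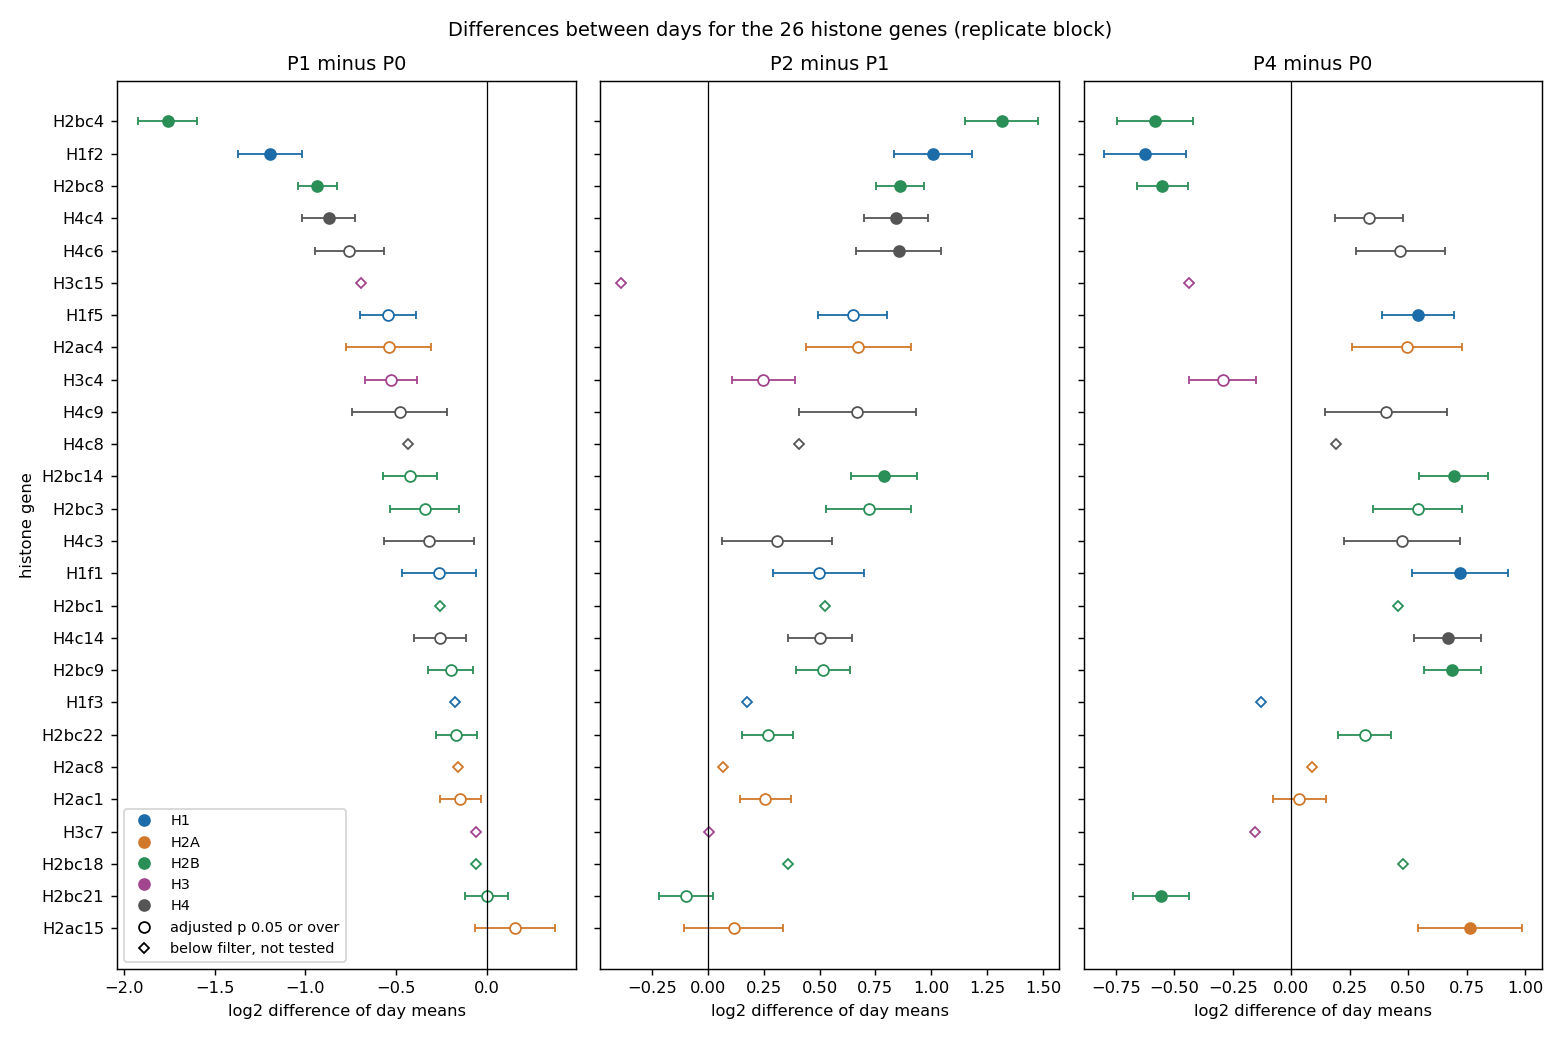
Log2 difference of day means for each of the 26 histone genes, for P1 minus P0, P2 minus P1 and P4 minus P0. Circles are genes that passed the filter, with the standard error from the model with the replicate term, filled where the adjusted p is under 0.05, and diamonds are genes below the filter, which were not tested. Colours are the histone classes; 4 circles are filled at P1, 6 at P2 and 10 at P4.

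The third comparison sets the end of the series against birth. For P3 against P0 0 members were called without a replicate term, against 2.18% of all genes tested, and 1 had an unadjusted p under 0.05, against 10.5%. With the term H2bc9 was called higher (0.43, adjusted p = 0.0480), against 3.00% of all genes tested, and H1f2 lower (-0.64, adjusted p = 0.0416), against 3.48%. Those 2 calls were lost in 11 and 10 of the 15 cases with 1 sample left out, among them P0 replicate 2 or 3 and P3 replicate 2 or 3 for both, and 1 of 19 members is near the share of all genes.

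At P4 the members had parted in 2 directions from their P0 level. Of the 26, 18 had a higher mean at P4 than at P0 and 8 a lower one, against 46.4% lower among all named genes. The median difference was 0.37, against 0.015 over all named genes. The median was 0.097 in the first replicates and 0.44 within replicates 2 and 3. Without a replicate term 0 members were called, against 5.63% of all genes tested, and 4 had an unadjusted p under 0.05, against 14.2%. With the term 10 of the 19 members tested were called: 6 higher, against 5.69% of all genes tested, and 4 lower, against 5.44%. With the array set as the term 8 of these 10 were called, 5 higher, against 5.49%, and 3 lower, against 5.01%, and H2ac15 (adjusted p = 0.0636) and H2bc4 (adjusted p = 0.174) were not.

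The 6 genes higher at P4 came from 4 classes: H1f1 (0.72) and H1f5 (0.54) of H1, H2ac15 (0.76) of H2A, H2bc9 (0.69) and H2bc14 (0.70) of H2B, and H4c14 (0.67) of H4. H2bc9 had values of 9.87, 11.00 and 11.00 at P4, against 9.39, 10.10 and 10.31 at P0. Every P4 sample was higher than the P0 sample of its number, but the first replicate of P4 lay below 2 of the 3 P0 samples. H2bc9 was 1.61-fold higher (SE 0.12, adjusted p = 0.0014). H4c14 had 8.88, 10.42 and 10.35 at P4, against 8.51, 9.57 and 9.57 at P0, and was 1.59-fold higher (SE 0.14, adjusted p = 0.0059). The first replicates again lay well below the others on both days. H2bc14 was 1.62-fold higher (8.77, 10.32 and 10.20 at P4, against 8.22, 9.54 and 9.44 at P0, adjusted p = 0.0055).

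The 4 genes lower at P4 included the 3 with the clearest dip at P1. Both comparisons subtract the same P0 samples, so that a high value at P0 enters both. H1f2 had 9.75, 9.69 and 9.84 at P4, against 10.14, 10.58 and 10.42 at P0, and was 1.54-fold lower (difference -0.62, adjusted p = 0.0318). H2bc8 had 6.82, 7.12 and 6.68 at P4, against 7.25, 7.57 and 7.45 at P0, and was 1.47-fold lower (-0.55, adjusted p = 0.0033). In both genes every P4 sample lay below every P0 sample. This held for 2 of the 26 members, against 1186 of the 19938 named genes. In 0 members every P4 sample lay above every P0 sample, against 1268 named genes. H2bc4 (7.68, 8.55 and 7.90 at P4, against 8.10, 9.36 and 8.42 at P0) was lower by a difference of -0.58 (adjusted p = 0.0321 with the replicate number and 0.174 with the array set as the term), with overlapping groups.

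Most members were lowest at P1, but H2ac15, H3c7, H3c15 and H2bc21 were not. The day means of H2bc21 were 9.55, 9.55, 9.45, 9.22 and 8.99 on P0 to P4, with no dip at P1. It had 9.39, 8.87 and 8.72 at P4, against 9.93, 9.51 and 9.22 at P0, and was 1.47-fold lower (-0.56, adjusted p = 0.0060). It was also the member whose first replicates lay most above replicates 2 and 3, by 0.43 on average over the days. Of the 10 calls at P4, those of H2bc8, H2bc9, H2bc14, H2bc21 and H4c14 held with any 1 sample left out of the fit with the replicate number. With the array set as the term those of H2bc9, H2bc14 and H4c14 did, and those of H2bc8 and H2bc21 were each lost without P0 replicate 1 or 2 or P4 replicate 3 (up to 0.0708 and 0.0656). In the fit with the replicate number those of H1f1, H1f2, H1f5, H2ac15 and H2bc4 were each lost without P0 replicate 2 or 3 or P4 replicate 2 or 3, and some without other samples too, with adjusted p of 0.154 to 0.203 at most.

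Set against P1 rather than P0, P4 was higher in 24 of the 26 members, while 47.55% of all named genes were lower. The median difference was 0.67, against 0.0093 over all named genes. The same P1 samples entered the first and second comparisons, so that a low value at P1 enters this one too. Without a block 0 members were called, against 6.27% of all genes tested, and 9 had an unadjusted p under 0.05, against 15.5%. With the array set as a block 14 of the 19 members tested were called higher, against 7.00% of all genes tested, and H2bc21 was called lower (-0.56, adjusted p = 0.0099), against 5.46%. The largest were H4c6 (1.22, adjusted p = 3.29e-04), H4c4 (1.20, 2.98e-05), H2bc4 (1.18, 0.0047), H2bc14 (1.12, 6.98e-05) and H1f5 (1.09, 1.74e-04). H4c4, for example, had 10.42, 12.16 and 12.09 at P4, against 8.87, 11.01 and 11.18 at P1. Of the 15 calls 9 held with any 1 sample left out, among them those of all 5 genes just named. Those of H1f2, H2ac4, H2bc21, H2bc22, H4c3 and H4c9 were each lost without P1 replicate 2, and each without other samples too (adjusted p of up to 0.232). Array set here stands for first replicates against replicates 2 and 3.

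An F test for any difference among the 5 days called H1f2 (adjusted p = 0.0049), H2bc8 (0.0201) and H2bc4 (0.0392) without a block, 3 of 19 members against 5.37% of all genes tested. The call of H1f2 held with any 1 sample left out, that of H2bc8 was lost without P0 replicate 3 or P1 replicate 1 or 3 (up to 0.0710), and that of H2bc4 was kept only without replicate 1 or 2 of P0, P2 or P4 (otherwise up to 0.202). With the array set as a block 11 members were called, against 11.7% of all genes tested: the same 3 with H1f5, H2bc3, H2bc9, H2bc14, H2bc21, H4c4, H4c6 and H4c14. Of these, the calls of H2bc3 and H2bc21 were lost without P0 replicate 1 or P1 replicate 1, and also without others (adjusted p of up to 0.142).

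The 2 array sets differed more in the histone genes than in most genes. Averaged over the days, 24 of the 26 members were higher in replicates 2 and 3 than in the first replicates, against 46.6% of all named genes, with a median of 0.58 against -0.02. H4c6 had the largest such difference of all 19938 named genes (2.18), H4c4 the second (1.75), H2ac15 the fourth (1.66) and H4c3 the seventh (1.55). H1f2 (0.05), H2ac1 (0.11), H2bc22 (0.17) and H2bc8 (0.29) differed little between the sets. Of the other genes called lower at P1, H2bc4 differed by 0.57 between the sets. The labels do not say what sets the first replicates apart, and its part in the values was not tested.

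Most histone copies are too alike for a probe set of their own. A further 26 probe sets carry several histone symbols, in 24 distinct rows of values, and enter none of the comparisons of genes above. All 24 were lower at P1 than at P0, against 48.9% of all named genes. The difference was between -0.28 and -0.21 for the 2 of H2A, between -0.45 and -0.39 for the 6 of H2B, between -0.45 and -0.26 for the 10 of H3, between -0.87 and -0.54 for the 5 of H4 and -0.30 for the 1 mixed row. The H4 row at -0.87 did not pass the filter, and the 4 H4 rows that passed it lay between -0.58 and -0.54. All 24 rows were higher at P2 than at P1, while 45.8% of all named genes were lower. With the replicate term 0 of the 23 rows that passed the filter were called in either comparison, against 0.0200% of all 20041 probe sets tested called lower at P1 and 0.150% called higher at P2. For P4 against P0, 10 were called higher with the term, against 3.23% of all probe sets tested: all 6 of H2B (0.78 to 0.91), 3 of H3 and 1 of H2A. Without the term 0 were called (adjusted p of 0.670 to 0.999), against 1.70%. Their signal cannot be assigned to 1 gene, and these rows are not independent of one another. For H3, which the single-symbol members cover poorly, the 10 shared rows had differences of 0.66 to 0.79 for P4 against P0, 3 of them called with the term, and H3c4, H3c7 and H3c15 had -0.29, -0.16 and -0.44. The H3 rows also held the largest gaps of the shared rows between the array sets, 2.05 to 2.47 higher in replicates 2 and 3 than in the first replicates.

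Genes that make, process and carry histone mRNA or protein were compared next, from lists of known members. The lists overlap: some genes are also on the cell cycle lists below, among them Slbp, Ccna2 and Cenpa. Of 31 measured genes of histone mRNA 3′ end processing and decay, 0 of the 30 tested were called at P1 against P0 without or with the replicate term (median 0.0062). Slbp itself had 8.50, 8.44 and 8.89 at P1, against 8.64, 8.93 and 8.63 at P0, a difference of -0.12. Lsm10 and Lsm11, proteins of the U7 snRNP that takes part in processing the histone pre-mRNA, had differences of -0.19 and 0.05. Casp8ap2 (FLASH), their partner, had 0.07. Of 15 genes of histone transcription 0 were called (median 0.04): Npat had a difference of -0.17, and Ccna2, the cyclin of S phase and G2, had -0.60 (adjusted p = 0.0657 with the replicate term). Of the 27 histone chaperone genes tested 0 were called at P1, with a median of -0.0034.

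Replication-independent histones, which are made outside S phase too, gave 0 calls of 10 tested at P1 and a median of -0.09. H2ax, the variant phosphorylated at DNA breaks, had a difference of -0.54 (adjusted p = 0.128 with the replicate term), and Cenpa, the centromeric H3, had -0.50 (adjusted p = 0.0704). At P2 both were called higher than at P1 with the term (0.73, adjusted p = 0.0109, and 0.70, adjusted p = 0.0047). These were 2 of the 10 tested, against 0.766% of all genes tested.

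The cell cycle lists differed in their counts. Of 45 genes of DNA replication and S phase, 0 were called at P1 against P0 (median -0.08), and 3 were called higher at P2 than at P1 with the replicate term, against 0.766% of all genes tested (median 0.28), among them Tyms, which makes thymidylate (0.63, adjusted p = 0.0166). Of 36 G2/M genes 0 were called at P1 without a replicate term and 7 were called lower with it, against 0.160% of all genes tested (6 with the array set as a block, against 0.151%), with a median of -0.63. They include Cenpf, a kinetochore protein (-0.83, adjusted p = 0.0214), Kif11, the spindle kinesin (-0.74, adjusted p = 0.0272), and Cdc25c, the phosphatase that starts mitosis (-0.66, adjusted p = 0.0203). At P2, 26 of the 36 were called higher than at P1 with the term, against 0.766% of all genes tested, and 4 without it, against 0.0589% (median 0.74). The mean of the G2/M list was 8.08, 8.29 and 8.57 at P1, against 8.73, 9.14 and 8.85 at P0, so that no P1 sample reached a P0 sample. The DNA replication list averaged 8.86, 8.76, 9.04, 9.07 and 9.02 on P0 to P4, and the list of histone transcription 8.41, 8.38, 8.52, 8.54 and 8.52. That of replication-independent histones averaged 8.64, 8.47, 8.71, 8.73 and 8.69. The day means of these 3 lists were lowest at P1 too. In replicate 3, though, P1 was above P0 for DNA replication (8.96 against 8.85) and for histone transcription (8.57 against 8.37). The median P1 minus P0 difference of the histone transcription list was 0.04. The part of the cell cycle genes in the histone values was not tested.

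**Figure D4:**
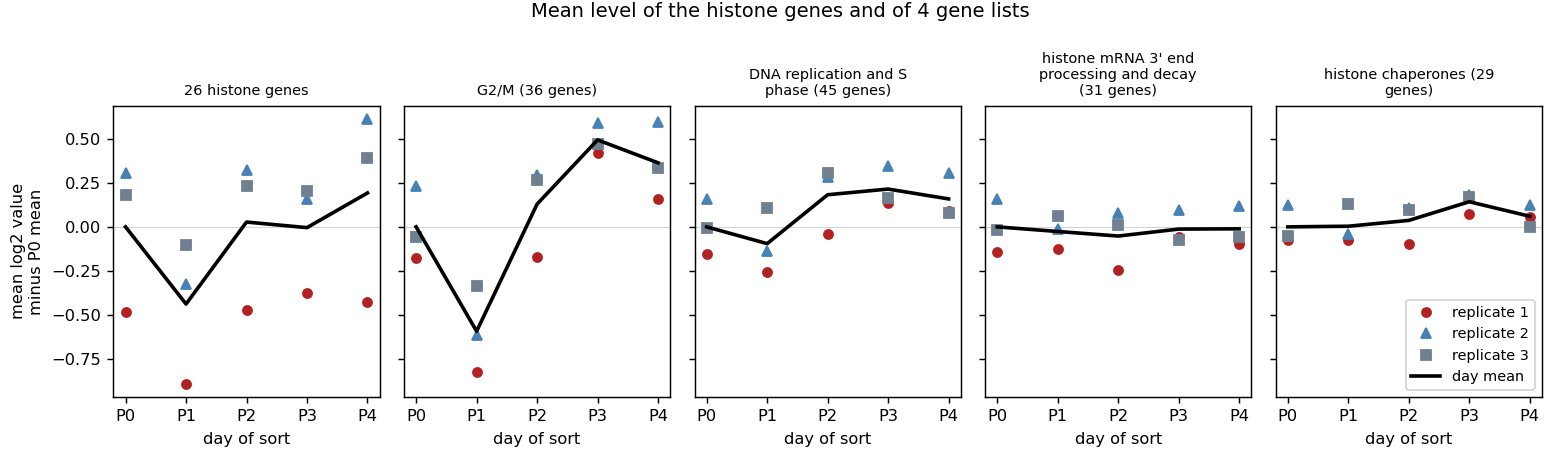
Mean log2 value of the 26 histone genes and of 4 gene lists in each of the 15 samples (points, by replicate number) relative to the mean of the 3 P0 samples, with the mean of each day (line), for P0 to P4. The day means of the histone genes, the G2/M list and the DNA replication list are lowest at P1, with medians of P1 minus P0 of -0.33, -0.63 and -0.08, against 0.0062 and -0.0034 for the 3′ end processing and chaperone lists.

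Markers of the sorted compartments gave no call at P1. The 10 cap mesenchyme genes averaged 9.77, 10.27 and 10.31 at P1, against 9.83, 10.40 and 10.43 at P0, and the 10 renal vesicle genes averaged 7.33, 7.69 and 7.91 at P1, against 7.33, 7.82 and 7.76 at P0, with 0 called in each list in both models. The stroma list of 10 genes averaged 7.99, 8.12 and 8.16 at P1, against 8.17, 8.27 and 8.24 at P0, so that each P1 sample was below every P0 sample, with a median difference of -0.13 and 0 of 9 called in both models. The macrophage list of 7 genes averaged 6.09 to 6.31 at P1, against 6.24 to 6.45 at P0, and 1 of them, Cd68, was called lower at P1 with the replicate term (-0.69, adjusted p = 0.0214). The part of the stroma and macrophage markers in the histone values was not tested.

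Across the 15 samples, the genes whose values followed the centred mean of the 26 members most closely by Pearson correlation were Fkbp2 (0.955), Tex9 (0.952), Acot7 (0.944), Ube2s (0.941) and Anp32a (0.941). The 15 samples share the array set difference, so the correlations are a description of these samples.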

How the data were processed

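RNA of sorted Crym-EGFP-positive cells was amplified in 1 round (WT-Ovation Pico), labelled and hybridised to 1-colour Affymetrix Mouse Gene 1.0 ST class arrays. Affymetrix Expression Console is the tool that the labels name. The log2 values that the authors deposited (log2 by their range) cover 35557 probe sets in 15 samples. The algorithm, the background correction and the version are named in none of the sources used here. No further scaling was applied. Whether dim genes still hold background, which would understate their differences, was not tested.

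Probe sets were named through GEO's platform table: 21789 had 1 symbol, 1621 had several and 12147 were not listed. Only those with 1 symbol entered comparisons of genes, and for 999 of the 19938 genes the brightest of several probe sets stood for the gene. Genes above log2 6.86, the median of all values, in at least 3 arrays were kept (11885, with 19 of the 26 members). H1f3, H2ac8, H2bc1, H2bc18, H3c7, H3c15 and H4c8 were not.

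With limma 3.58.1 (R 4.3.3), day means of all 15 samples were fitted together and moderated with eBayes. Two-sided p-values were adjusted by Benjamini-Hochberg over these 11885 genes, and the threshold was 0.05. The replicate number of the titles (no number was taken as 1) was added as a block in a second fit. Deviations from the day means were correlated between same-numbered samples. The correlations were over 0.1 in all 3 pairs of every 2 days except P4 and P1 (lowest 0.0782), and 0.138 was the lowest for P1 and P0. Samples of different numbers were not compared, so this check cannot tell pairing by number from the difference between the array sets. Only the fit without a block was tested on simulated data, which held independent noise and no difference between array sets.

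The members, gene lists and tests were chosen with earlier results of these data known. Named were, for each class, the members with the highest mean, the smallest p for P1 against P0 and the smallest F test p, the 8 largest differences of P1 against P0, members called between adjacent days, and up to 5 genes of each list by p. Members named beyond these, among them H2bc21, H2bc14, H4c14 and the dim genes, were chosen after their values were seen.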

Additional observations from a re-analysis of the deposited data

How the results depend on the processing

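Within the tests of the 26 histone genes the block decided the calls. For P1 against P0, 0 members were called without a block, 1 (H1f2) after quantile normalization, and 4 with the array set block, with the replicate block, and with the replicate block and no filter on dim genes. For P2 against P1 the counts were 0, then 1 with a filter at the 75th percentile, with quantile normalization, or with trend and robust eBayes, 6 with either block, and 5 with the replicate block and no filter. For P3 against P0, 2 were called with either block, 1 within replicates 2 and 3, and 1 with the replicate block and no filter. For P4 against P0 the counts were 8 with the array set block, 10 with the replicate block, 5 within replicates 2 and 3, and 11 with the replicate block and no filter. For P4 against P1 they were 2 with quantile normalization, 2 with scaling to median and interquartile range, 1 with only the days compared in the fit, 15 and 16 with the array set and replicate blocks, 12 within replicates 2 and 3, and 16 with the replicate block and no filter. The F test called 11, 12, 6 and 14 members with the array set block, the replicate block, within replicates 2 and 3, and with the replicate block and no filter, against 3 without a block. The G2/M list had 6 and 7 calls with the array set and replicate blocks. Where P4 and P1 are compared, same-numbered samples did not all deviate together. Among the lists at P1 the replicate block changed no other call but that of Cd68. Dim genes limit the rest: 7 of the 26 members did not pass the filter, and the table gives no background signal to set them against.

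With 1 sample left out, the counts without a block ranged over 0 to 1 (P1 against P0, P2 against P1, P3 against P0, P4 against P0), 0 to 3 (P4 against P1) and 1 to 3 (F test). With the replicate block they ranged over 1 to 4, 2 to 9, 0 to 4, 5 to 11, 10 to 16 and 9 to 14 for the same comparisons in that order, and over 0 to 1 for P3 against P2 and for P4 against P3. The difference of H2ac15 at P1 turned to -0.20 within replicates 2 and 3, and lay between -0.48 and 0.60 with 1 sample left out, with the sign turned without P0 replicate 1 or P1 replicate 3, or with the block and without P1 replicate 1. With 1 sample left out that of H2bc9 lay between -0.47 and 0.076 and that of H4c6 between -1.34 and 0.015, both turned only without P1 replicate 1. The cause was not tested. The replicate block without the filter and with samples left out was added after seeing the data.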

Other observations

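Of the 20 genes called at P1 against P0 with the replicate block (limma), 19 were lower and 1 was higher. Beside 4 histone genes and 7 genes of the G2/M list they were Arrdc3, Knstrn, Ak4, Tpi1, Egln3, Pfkl, Aldoa, Cd68 and Abi3bp. Of the 8 that were lower, Arrdc3 had the largest difference, -1.13 (adjusted p = 0.0272), and the others had differences between -0.86 (Knstrn) and -0.69 (Cd68). Knstrn was called higher at P2 than at P1 with the block (1.00, adjusted p = 0.0033), and the other 7 were not, with differences between -0.13 (Arrdc3) and 0.33 (Ak4). Abi3bp, the gene that was higher, had a difference of 1.16 at P1 (adjusted p = 0.0203) and of -1.06 at P2 against P1 (adjusted p = 0.0110). Without the block none of the 20 was called (adjusted p of 0.110 to 1). Whether the courses of these genes differ from those of the histone genes was not tested.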
